A study of Mus musculus with 3 samples.

Results

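Genes of the Wnt pathway were compared between 3 stages of mouse palate fusion in culture. The members were chosen by gene symbol: the numbered Wnt, Fzd, Sfrp and Dkk genes, together with Frzb, Wif1, Lrp5, Lrp6, Lef1, Axin2, Nkd1, Rspo1, Rspo2, Rspo3, Lgr5 and Wls. The rule itself used no measured value, but it was set with earlier results of these data known. It gave 50 genes, covered by 100 probe sets, of the 18193 genes that had a probe set naming a single gene. Tcf7 was on the list too, but no probe set named it as its single gene in the annotation used, and it was not analysed here. The symbol rule also took in Fzd10os, a transcript from the strand opposite Fzd10 that encodes no receptor, and it was kept apart from the receptors.

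RNA was taken from palates of ICR mice, which the labels give as female and as E14 fetuses, with no mutant allele or drug in any group. The upper jaw was cut from each fetus and grown as an explant in suspension culture in BGJb medium with antibiotics under an oxygen-rich gas. There was 1 array before fusion (5 h in culture, from the shelf edge), 1 during fusion (24 h, from the median tissue) and 1 after fusion (60 h, also from the median tissue). The methods name 5 samples per stage and do not say whether they were pooled on an array. The stage, the hours in culture and, against the first array, the piece of tissue dissected changed together and cannot be told apart. With 1 array per stage there was no replicate and no test between stages, so every ratio in this report compares these 3 arrays only.

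Wnt proteins are secreted lipid-modified ligands that bind Frizzled (Fzd) receptors and, for the branch that acts through β-catenin, the co-receptors Lrp5 and Lrp6. Stabilised β-catenin enters the nucleus and works with factors of the TCF/LEF family, of which Lef1 is one, while other branches act on cell polarity and movement. R-spondins strengthen the signal, and secreted antagonists either bind the ligands (Sfrp, Frzb, Wif1) or bind the Lrp co-receptors (Dkk). In the developing face the pathway is known for roles in the outgrowth of the facial processes and in lip and palate formation.

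The measurement was the MAS5 signal of each probe set, a linear intensity, after the arrays were scaled to a common trimmed mean. The trimmed means before scaling were between 124 and 150. A floor for each array was set at the 95th percentile of 81 probe sets of sensory receptor genes, which gave scaled floors of 19.4 before, 13.3 during and 14.7 after fusion, and between 56.9% and 65.8% of probe sets lay above it. A signal under the floor was raised to it, which makes the ratio a bound. Each gene was represented by its brightest probe set, and a gene was counted as changed past 2-fold. The values are signals of different probes, so they were compared between stages and not between genes. The summed signals of marker lists given below weight each gene by the brightness of its probe set. The only spread available was that between probe sets of one gene: the SD of their log2 ratios after over before fusion was 0.63 where the signal on the dimmer array was under 50, 0.41 where it was between 50 and 200 and 0.26 above 200.

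Of the 50 members, 40 lay above the floor on all 3 arrays. Wnt2b, Wnt7a and Wnt10b were above it on 1 or 2 arrays, and 7 were under it on all 3: Wnt1, Wnt3, Wnt3a, Wnt8a, Wnt8b, Wnt9b and Dkk4. The number above the floor was 41 before, 42 during and 43 after fusion, and 43 members had a ratio in each pair of stages. In all, 16 members passed 2-fold between at least 1 pair of stages and 27 were above the floor and within 2-fold in every pair.

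During fusion, 3 members were over 2-fold higher than before fusion, or 6.98% of those with a ratio, against 5.47% of all genes with a ratio. Another 6 were over 2-fold lower, or 14%, against 3.18% of all genes. After fusion, 5 members were higher than before (11.6%, against 12.6% of all genes) and 10 were lower (23.3%, against 9.55%). Between the arrays during and after fusion, 4 members were higher after (9.30%, against 8.72%) and 2 were lower (4.65%, against 5.06%). The share of members that were lower thus stood above that of all genes in both comparisons with the array before fusion, which share that array. The shares that were higher lay near those of all genes. With the floor set at each array's median, 4 members were lower during and 7 after fusion than before. Adding the floor to both signals gave 5 and 5. No share of all genes was computed under those settings. The median log2 ratio of the members was -0.06 during over before, against -0.05 for all genes, -0.22 after over before, against -0.09, and -0.01 after over during, against -0.03. A bound for Wnt2b that falls short of a direction enters these medians but is given no fold.

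**Figure D1:**
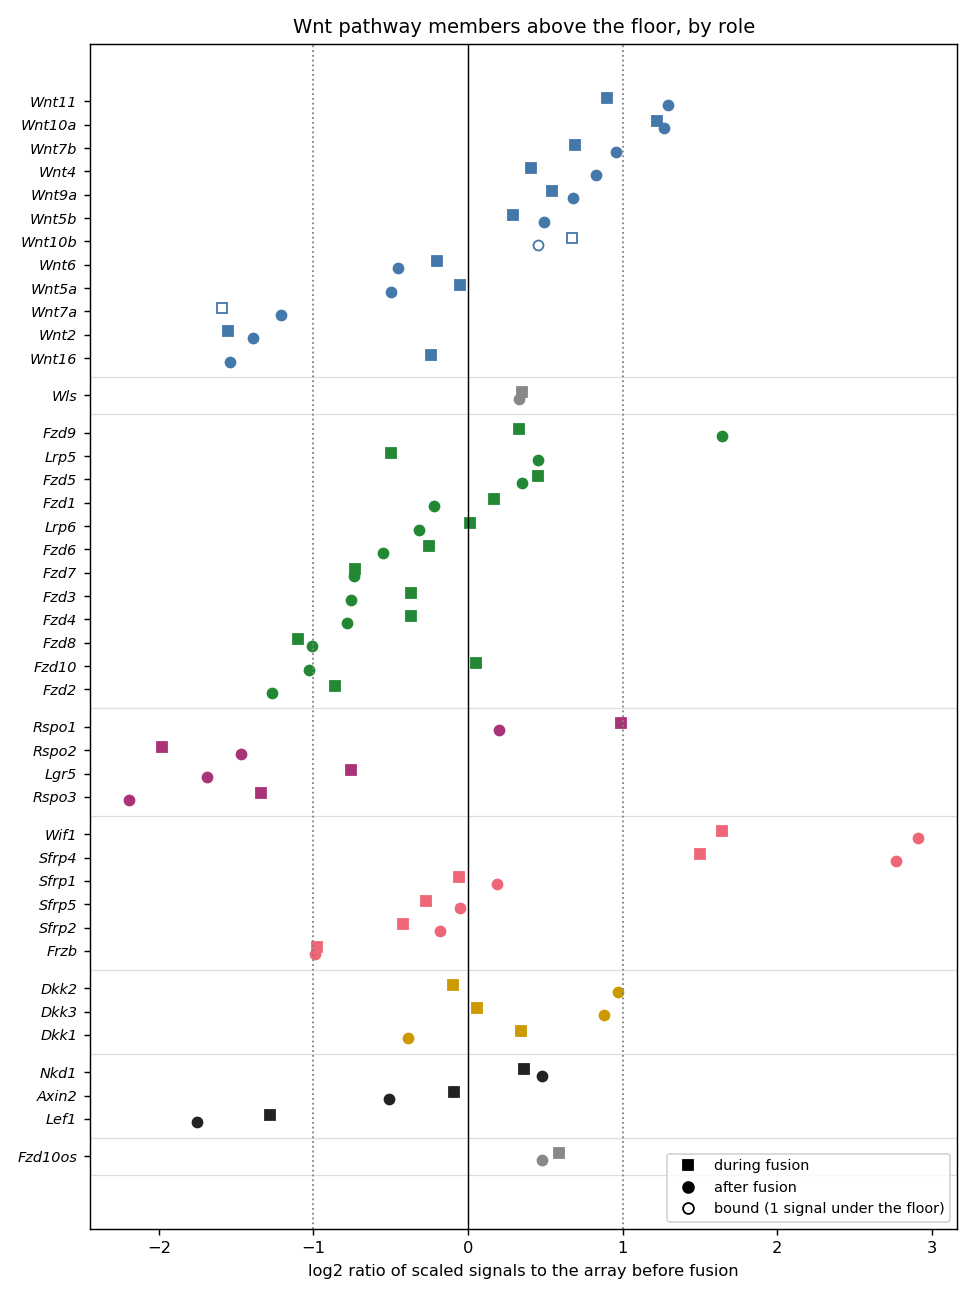
Log2 ratio of the scaled signal during (squares) and after fusion (circles) to that before fusion for 42 members above the floor on at least 1 array, ordered by role from the ligands at the top to Fzd10os at the bottom, with open symbols for bounds and dotted lines at 2-fold; Wnt2b, whose bound has no direction, is left out. Wif1 and Sfrp4 lie farthest to the right, and Rspo3, Lef1, Lgr5 and Wnt16 farthest to the left after fusion.

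The plot of ratios by role shows members of the same role on both sides of 1. Among 13 Wnt ligands with a ratio, 2 passed 2-fold upwards and 3 downwards after fusion against before, and the median log2 ratio was 0.45. That median is the bound of Wnt10b, and over 6 scalings it ran from 0.07 to 0.62. Among 12 receptors and co-receptors 1 was higher and 3 were lower, with a median of -0.64. Of the R-spondins and Lgr5, 4 genes in all, 3 were lower and none higher, with a median of -1.58. Of the 6 antagonists that bind Wnt, 2 were higher and none lower, with a median of 0.07. None of the 3 Dkk genes with a ratio passed 2-fold after over before, with a median of 0.88, and 1 of the 3 nuclear and feedback genes was lower, with a median of -0.51. Counts this small describe these members and say nothing of the roles at large.

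The largest ratios of any member belonged to 2 secreted antagonists. Wif1, Wnt inhibitory factor, binds Wnt proteins outside the cell. Its scaled signal was 143 before, 446 during and 1073.8 after fusion. It was thus 3.11-fold higher during and 7.49-fold higher after than before, with a further 2.41-fold between during and after. Among the 12004 genes above the floor on both arrays, it ranked 123 from the top after over before fusion. Sfrp4, a secreted Frizzled-related protein, stood near the floor before fusion at 24.6, and was at 69.7 during and 168 after it. Its signal was 2.83-fold higher during and 6.84-fold higher after fusion, ranking 151 in the latter comparison, and 2.42-fold higher after than during. Each of these genes had a single probe set, so no other probe set could be set beside it.

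The other Sfrp genes and Frzb did not follow. Sfrp2 had signals of 4581.3, 3432.1 and 4047.8, ratios of 0.749 during and 0.884 after fusion to before. Sfrp1 was at 471, 452 and 538, with a ratio of 1.14 after fusion. Sfrp5 stayed near the floor at 24, 19.9 and 23.1. Frzb, which binds Wnt proteins and is known from cartilage, had 1401.2 before fusion, 709 during and 705 after it. Its ratios of 0.506 and 0.503 stopped just short of 2-fold, and its other probe set, at 720.1, 271 and 319, was past it with ratios of 0.376 and 0.443.

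The Dkk genes encode secreted proteins that, except for Dkk3, bind Lrp5 and Lrp6. Dkk2 was at 85.4 before, 79.8 during and 167 after fusion. It was 2.09-fold higher after than during and 1.96-fold above its level before. Dkk3 had signals of 177, 185 and 326, with ratios of 1.84 after over before and 1.76 after over during, and its other probe set gave 1.69 after over before. Dkk1, by contrast, was at 46.9, 59.6 and 35.9, with ratios of 1.27 during and 0.765 after over before. Dkk4 was under the floor on every array.

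**Figure D2:**
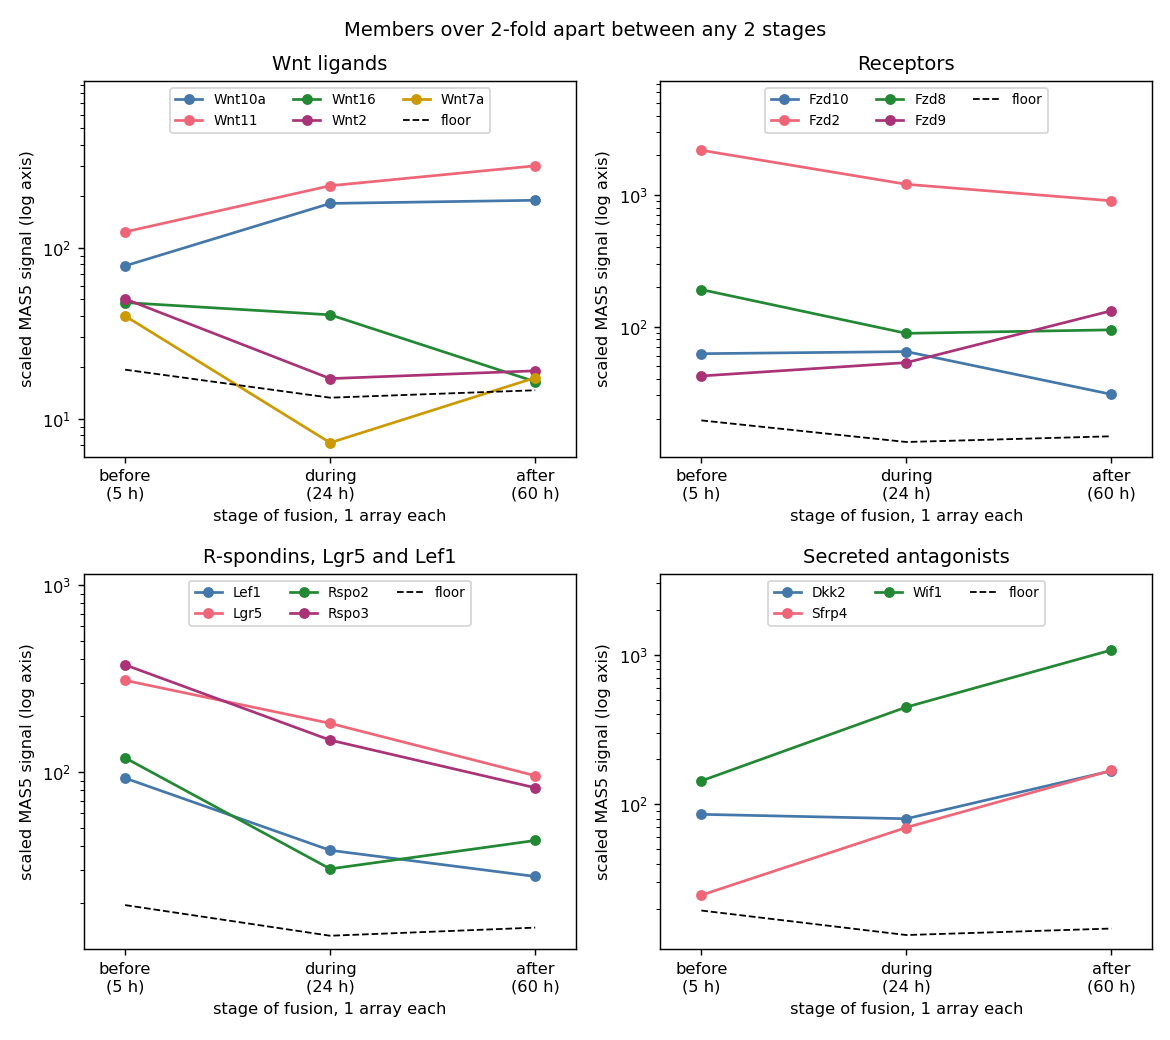
Scaled MAS5 signal (log axis) at each stage of fusion for the 16 members over 2-fold apart between any pair of stages, 1 array per stage, with the floor of each array as a dashed line. Wif1 climbs from 143 to 1073.8 and Sfrp4 from 24.6 to 168, Rspo3 drops from 374 to 82.3, and Wnt7a lies under the floor during fusion.

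R-spondins amplify Wnt signalling by binding Lgr receptors and clearing the ubiquitin ligases that remove Frizzled from the cell surface. As the plot of signals by stage shows, 2 of the R-spondins and Lgr5 were lower after fusion. Rspo3 had signals of 374 before, 148 during and 82.3 after fusion. Relative to the first array it was lower by 2.52-fold and then by 4.55-fold, and among the 12004 genes above the floor on both arrays it ranked 11937 from the top. Lgr5, an R-spondin receptor and marker of several stem cell populations, was at 309, 182 and 95.5. It was 3.23-fold lower after fusion, and its ratio during fusion was 0.589. Rspo2 was at 119, 30.3 and 43.0, a drop of 3.93-fold by the second stage and 2.77-fold by the last, so its lowest array was that during fusion. Its other probe set, dimmer at 21.0, 14.4 and 2.86, gave ratios of 0.688 and at most 0.701. Rspo1 differed from both: its signals of 221, 438 and 253 were highest during fusion, with ratios of 1.98 during and 1.15 after over before. The further probe sets of Rspo3 and Lgr5 were under the floor on every array.

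Lef1 is a DNA-binding partner of β-catenin. Its signal was 92.7 before, 38.1 during and 27.6 after fusion, 2.43-fold and 3.36-fold lower than before. A dimmer probe set at 23.2, 13.7 and 12.3 gave ratios of 0.590 and at most 0.634. The other feedback genes measured stayed within 2-fold. Axin2, a scaffold of the complex that degrades β-catenin and a common readout of the pathway, had signals of 132, 125 and 92.7, with ratios of 0.942 during and 0.701 after fusion. Its second probe set ran at 30.0, 17.4 and 32.7, with ratios of 0.579 and 1.09. Nkd1, an inhibitor that binds Dishevelled, was at 119, 152 and 166, with ratios of 1.28 and 1.40, and a second probe set at 57.9, 91.3 and 146 gave 2.52 after over before fusion. The brightest probe sets of these 3 genes thus had ratios on both sides of 1 after fusion.

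Of the Frizzled receptors, Fzd2 had signals of 2181.8 before, 1204.0 during and 902 after fusion. It was 2.42-fold lower after than before, with a ratio of 0.552 during fusion, and its other probe sets gave 0.299 and 0.557 after over before. Fzd8 was at 191, 88.9 and 94.5, so that both later arrays were lower, by 2.14-fold and 2.02-fold, and its other probe set gave 0.493 and 0.332. Fzd10 held its signal between the first arrays, at 62.3 and 64.6, and was at 30.6 after fusion, 2.04-fold lower than before and 2.11-fold lower than during. Fzd9 went the other way, at 42.2, 53.3 and 132, and was 3.12-fold higher after than before and 2.47-fold higher than during fusion. It was the one receptor past 2-fold upwards, and it had a single probe set.

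The remaining receptors stayed within 2-fold on their brightest probe sets, while other probe sets of Fzd3 passed 2-fold in both directions after over before fusion. Fzd7 had signals of 460.3, 277 and 276, with a ratio of 0.599 after over before. Fzd3, Fzd4 and Fzd6 had ratios of 0.592, 0.582 and 0.683 in that comparison, and Fzd1 had 0.862. Fzd5 was at 37.0, 50.4 and 47.2, with a ratio of 1.28. The co-receptor Lrp6 was at 354, 357 and 283, with a ratio of 0.799. Lrp5 was at 61.3, 43.4 and 84.0, so that it was lowest during fusion and its ratio after over during was 1.93. Fzd10os was at 60.9, 91.5 and 84.8, with ratios of 1.5 during and 1.39 after fusion, while its other probe set ran at 38.3, 23.2 and 3.35.

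Among the ligands, Wnt10a and Wnt11 were higher after fusion. Wnt10a, known for its part in tooth and skin appendage development, had signals of 78.5 before, 182 during and 189.9 after fusion, 2.32-fold and 2.42-fold higher than before. Wnt11, which mostly acts outside the β-catenin branch, had 124, 231 and 302, a ratio of 1.87 during fusion and 2.44-fold higher after it. Most of the difference in Wnt10a lay between the first pair of arrays, and that in Wnt11 was spread over both steps. Each had a single probe set. Wnt4, at 403, 534 and 716, Wnt7b, at 122, 196 and 237, and Wnt9a, at 81.9, 119 and 131, had ratios of 1.78, 1.94 and 1.60 after over before. Their other probe sets gave 0.963 for Wnt4, 1.43 for Wnt7b and at most 0.758 for Wnt9a. Wnt10b lay under the floor on the first array and had signals of 30.9 and 26.4 later, at least 1.60-fold higher during fusion and at least 1.36-fold after it. Wnt2b, likewise under it on the first array, had 17.5 and 16.3 later, close to the floor.

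The ligands Wnt2, Wnt7a and Wnt16 were lower. Wnt2 was at 50.3, 17.2 and 19.1, with both later arrays lower, by 2.93-fold and 2.63-fold. Wnt16 was at 47.9 and 40.6 on the first arrays and at 16.5 after fusion, 2.91-fold lower than before and 2.46-fold lower than during. Wnt7a was at 40.0 before fusion, under the floor during it and at 17.4 after it, which made it at least 3.01-fold lower in the second stage and 2.31-fold lower in the last. All of these signals were close to the floor after fusion, where the probe sets of one gene differed most, and each came within 2-fold when the floor was raised to the array median. Wnt5a, required for palate outgrowth, was at 226, 218 and 159.6, with a ratio of 0.705 after over before, and its other probe sets gave 0.659, 0.524 and 0.372. Wnt6 was at 234, 204 and 171, with a ratio of 0.733. Wls, the carrier that takes Wnt proteins to the cell surface, was at 958, 1219.6 and 1202.7, with ratios of 1.27 and 1.26.

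Some Wnt genes lie beside each other on a chromosome, and their values were set side by side. In the GRCm38.p6 annotation, Wnt6 and Wnt10a are neighbours on chromosome 1. Wnt6 had ratios of 0.871 during and 0.733 after over before fusion, against 2.32 and 2.42 for Wnt10a. Wnt9a, on chromosome 11 beside Wnt3a, had ratios of 1.45 and 1.60, while Wnt3a was under the floor on every array. Wnt10b, on chromosome 15 beside Wnt1, was likewise measured where its neighbour was not, and the pair of Wnt3 and Wnt9b on chromosome 11 was under the floor throughout.

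Promoter sequence was read for the members from RefSeq (GRCm38.p6), as windows of 300 bases from 250 before to 50 after each start. Of the 50 members, 32 had a window. Fzd2, Fzd8, Lgr5, Rspo2, Rspo3, Sfrp4 and Wnt10a, all past 2-fold between some stages, were among those without one and were not searched. The words CTTTGAT and CTTTGAA, of the kind that TCF/LEF factors bind, were searched on both strands, as ATCAAAG and TTCAAAG on the other. At least 1 of them stood in 3 of 38 member windows (7.89%), against 2842 of 32851 windows of all genes (8.65%). The 3 members were Wnt11, Dkk1 and Wnt5b, with the word 51, 117 and 71 bases before the start, in 1 of 2 windows for Wnt11 and 1 of 3 for Wnt5b. The last 150 bases before the start are shown for these 3, with the word in capitals, and for Wif1, the member with the largest ratio, whose window held neither word. They lie at chr7:98834962-98835111 (plus strand) for Wnt11, chr19:30549497-30549646 (minus strand) for Dkk1, chr6:119449387-119449536 (minus strand) for Wnt5b and chr10:121033854-121034003 (plus strand) for Wif1.
Wnt11: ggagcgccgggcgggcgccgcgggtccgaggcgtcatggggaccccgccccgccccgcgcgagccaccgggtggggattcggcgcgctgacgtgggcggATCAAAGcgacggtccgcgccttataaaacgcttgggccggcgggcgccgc
Dkk1: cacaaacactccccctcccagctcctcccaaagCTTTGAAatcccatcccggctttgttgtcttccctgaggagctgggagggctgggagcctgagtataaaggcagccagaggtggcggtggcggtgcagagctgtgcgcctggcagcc
Wnt5b: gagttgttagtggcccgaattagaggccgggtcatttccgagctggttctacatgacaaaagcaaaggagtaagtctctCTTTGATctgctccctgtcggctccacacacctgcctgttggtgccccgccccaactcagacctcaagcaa
Wif1: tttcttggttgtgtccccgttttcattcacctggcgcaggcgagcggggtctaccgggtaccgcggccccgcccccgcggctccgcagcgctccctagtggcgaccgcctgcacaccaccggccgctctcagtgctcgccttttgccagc
The 3 genes with a word had these ratios. Wnt11 was 2.44-fold higher after fusion than before, Dkk1 had a ratio of 0.765 and Wnt5b, at 36.1, 44.3 and 50.6, a ratio of 1.40 on its brightest probe set and 0.664 on its other. A match of letters is a description and not a bound site.

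**Figure D3:**
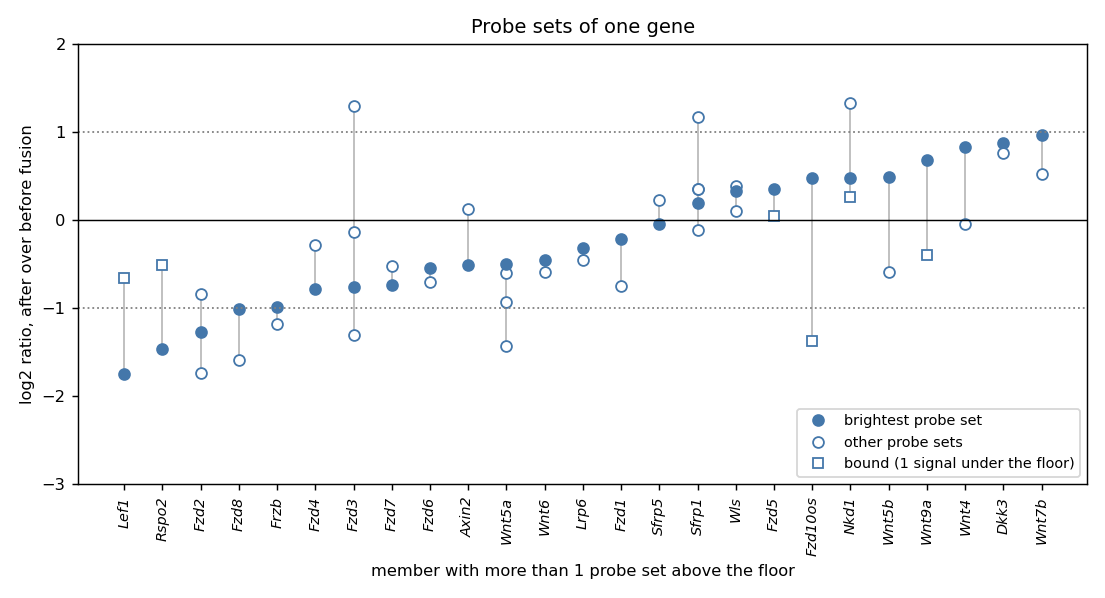
Log2 ratio after over before fusion for every probe set above the floor of the 25 members with more than 1 such probe set (60 probe sets), with the brightest probe set filled, the others open, bounds as squares and dotted lines at 2-fold; a probe set of Nkd1 whose bound has no direction is left out. The probe sets of 8 members, among them Fzd3 and Sfrp1, lie on both sides of a ratio of 1, and those of Lef1, Rspo2, Fzd2, Fzd8 and Frzb all lie below it.

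Agreement between probe sets could be looked at for 25 members. As the plot of probe sets shows, those of 8 members fell on both sides of a ratio of 1 after over before fusion: Axin2, Fzd10os, Fzd3, Sfrp1, Sfrp5, Wnt4, Wnt5b and Wnt9a. Fzd3 had the widest range, from 0.405 on a probe set at 56.1, 38.4 and 22.7 to 2.45 on one at 79.6, 98.5 and 195. Its brightest probe set gave 0.592. Sfrp1 had a probe set at 274, 285 and 617, a ratio of 2.25, against 1.14 on its brightest. Wnt5b had 0.664 on its other probe set against 1.40 on its brightest, whose probes are marked by the maker as shared with other transcripts. For these 8 genes the ratio of the brightest probe set does not stand for a direction of the gene.

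**Figure D4:**
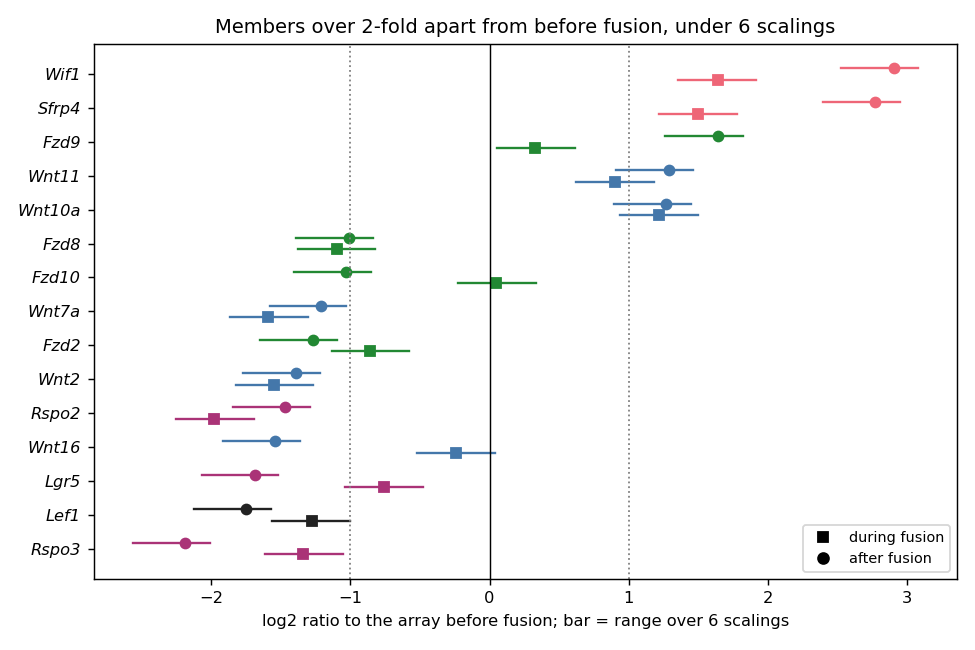
Ratio to the first array (log2) for the 15 members past 2-fold in a comparison with it, during (squares) and after fusion (circles), with bars for the range over 6 scalings of the arrays and dotted lines at 2-fold. The bars of Wif1, Sfrp4, Rspo3, Lgr5 and Lef1 after fusion stay outside 2-fold, and those of Wnt10a, Wnt11, Fzd8 and Fzd10 cross it.

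The plot of scalings shows how far the ratios moved with the way the arrays were set to one level. Over 6 scalings, Wif1 was between 5.77-fold and 8.47-fold higher after fusion than before, and Sfrp4 between 5.27-fold and 7.73-fold. On the lower side, Rspo3 ran from 4.03-fold to 5.90-fold, Lef1 from 2.97-fold to 4.36-fold and Lgr5 from 2.86-fold to 4.20-fold. Fzd9 ran from 2.40-fold to 3.53-fold higher. Wnt10a (1.86-fold to 2.73-fold), Wnt11 (1.88-fold to 2.76-fold), Fzd8 (1.78-fold to 2.62-fold lower) and Fzd10 (1.80-fold to 2.64-fold lower) were not past 2-fold under every scaling. The same held between during and after fusion for Dkk2 (1.86-fold to 2.31-fold higher) and Fzd10 (1.91-fold to 2.37-fold lower).

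Beyond the members, 69 other genes of the pathway were listed by their place in it, and all but Kremen2 had a probe set. After fusion, 5 of 64 with a ratio were over 2-fold higher than before (7.81%, against 12.6% of all genes) and 9 were lower (14.1%, against 9.55%), with a median log2 ratio of -0.30. During fusion 1 of 63 was higher (1.59%, against 5.47%) and 3 were lower (4.76%, against 3.18%). Between during and after fusion 1 of 63 was higher (1.59%, against 8.72%) and 4 were lower (6.35%, against 5.06%). By place, 3 of 7 extracellular and membrane inhibitors and 2 of 9 nuclear factors were lower after than before fusion. None of 12 surface genes passed 2-fold in that comparison. Of 9 planar polarity genes 2 were lower and 1 was higher, and of 15 cytoplasmic genes 1 was lower and 1 higher. Among 12 further target genes 3 were higher and 1 was lower.

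Shisa2, which holds immature Frizzled receptors inside the cell, had signals of 402, 144 and 71.9, and was lower by 2.79-fold during fusion and by 5.60-fold after it. Msx1, a homeobox factor of the palatal mesenchyme, was at 1013.0, 479 and 308, 2.12-fold and 3.29-fold lower. Invs, which favours the polarity branch, was at 139, 75.3 and 38.6, 3.61-fold lower after fusion. Sp5, a direct target of β-catenin, was at 27.1 before fusion and under the floor later, at least 2.03-fold lower during fusion. Each of these 4 genes was named for a low ratio to the array before fusion, so its high signal on that array follows from the choice.

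On the higher side, Celsr1, a cadherin of planar polarity, was at 248, 332 and 604, and Cd44, a hyaluronan receptor, was at 379, 687 and 921, both 2.43-fold higher after fusion. Ccn5, a secreted matrix protein, was under the floor before and during fusion and at 53.3 after it, at least 2.75-fold higher than before and at least 4.0-fold higher than during. Lgr6, related to Lgr5, was at 35.2, 75.8 and 60.6, 2.15-fold higher during fusion. Between during and after fusion, Cxxc4, at 158, 143 and 50.1, Apcdd1, at 623, 863 and 308, and Rnf43, at 60.3, 88.7 and 34.7, were 2.85-fold, 2.80-fold and 2.56-fold lower. All 3 restrain Wnt signalling, Cxxc4 at Dishevelled, Apcdd1 at the membrane and Rnf43 by removing Frizzled.

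Markers of several cell types moved between the same arrays. Of 14 epithelial markers with a ratio, 7 passed 2-fold upwards after fusion and none downwards, and their summed signal was 15397.7 before, 27639.4 during and 36225.1 after. Trp63 and Esrp1 had ratios of 0.613 and 0.700 after over before, while the other epithelial markers had ratios over 1. Of 14 markers of palatal mesenchyme, Msx1 among them, 8 were lower and none higher, with sums of 20524.8, 13900.1 and 13871.0. Between during and after fusion 5 of these 14 were lower, with a median log2 ratio of -0.58, while Vim was at 5488.5 and then 8538.1. Of 8 osteoblast markers 7 were higher, with sums of 7959.6, 12297.2 and 25797.2, and Ibsp, Phex, Dmp1 and Ifitm5 were under the floor before fusion. Col1a1 and Col1a2 made up most of these sums, at 1180.5 and 6520.7 before and 8300.6 and 11274.6 after fusion. All 10 markers of multiciliated and airway epithelium were higher, with sums of 298, 7525.4 and 27336.4, and 9 of 10 macrophage markers were, with sums of 721, 1488.4 and 3330.1. All 9 muscle markers with a ratio were lower, with sums of 1499.0, 423 and 182, and 2 of 10 endothelial markers were, with sums of 2848.1, 1157.2 and 1056.9. Aplnr, at 1612.9, 425 and 252, carried most of the fall in the endothelial sum. In whole tissue, fewer cells of a type and less RNA per cell cannot be told apart, and the part of these cell types in the ratios of the Wnt genes was not tested.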

How the data were processed

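RNA from 3 stages of palate fusion was hybridized to Affymetrix whole-genome mouse expression arrays, with a single array for each stage. The authors computed the signal intensities by MAS5, run in the scanner maker's GeneChip Operating Software with background correction, and the deposited intensity values are linear, with 1 per probe set. The scaling target is not given in the sources used here. The culture hours come from a legend of the study and the stages from the labels. The methods name Trizol for RNA extraction and the labels a column kit.

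The table held 45101 probe sets, 64 of them controls. Of the other 45037, 34945 named 1 gene, 932 several and 9160 none; 34741 symbols were matched by gene identifier to the RefSeq annotation of GRCm38.p6. Signals were multiplied by a factor per array that set the trimmed means equal (controls and the outer 2% on each side excluded), with factors of 1.11, 0.918 and 0.986. Ratios, bounds and the 2-fold threshold were computed as described above, and 4 deposited values of 0 were set to 0.1 where a log was needed. Python 3.11.15, numpy 2.4.6, pandas 2.3.3 and matplotlib 3.10.9 were used. The number of arrays limits the precision, and no p-value was computed.

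The members and lists were chosen with earlier results of these data known. Named were all members past 2-fold in any pair of stages and, of the other pathway genes, the 3 highest and 3 lowest past 2-fold in each pair; genes within 2-fold are given by value. Values of further probe sets were added after they were seen. The steps were tested on simulated data. The alternatives were 5 other scalings, leaving out the floor, setting it at the array median or adding it to both signals, other choices among the probe sets of a gene, a 4-fold threshold and probe sets in place of genes. Protein sequences were not analysed here.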

Additional observations from a re-analysis of the deposited data

How the results depend on the processing

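Of 30 ratios of members past 2-fold, each recomputed under 11 settings, 15 stayed past 2-fold under every setting, 15 came within 2-fold under at least 1, and none reversed. The largest median shift from scaling was -0.38 in log2 (after over before fusion, poly-A controls). A shift of that size cannot reverse a ratio past 2-fold. For members with a single probe set, the choices among probe sets could not change the ratio. The number of members over 2-fold higher during than before fusion was 3; it was 5 with scaling to hybridization controls, 5 with the signals as deposited, 6 with no floor and 0 at a 4-fold threshold. The number lower in that comparison was 6; it was 10 with scaling to poly-A controls and 0 at 4-fold. After over before fusion, the 5 members higher became 3 with poly-A controls, 9 as deposited, 2 at 4-fold and 8 counted as probe sets, and the 10 lower became 5 with the floor added, 1 at 4-fold and 16 as probe sets. After over during fusion, the 4 higher became 0 at 4-fold, and the 2 lower became 1 with one median, 1 with quantile normalization, 4 with hybridization controls, 1 with the floor at each array's median, 0 with the floor added and 0 at 4-fold. The median log2 ratio of members during over before fusion, -0.06, changed sign to 0.06 with hybridization controls and 0.22 as deposited. That after over during fusion, -0.01, became 0.14 with one median, 0.02 with quantile normalization and 0.06 with the median over probe sets. Scaling moved all genes as well: relative to the trimmed mean, their median log2 ratio during over before fusion shifted by -0.28 with poly-A controls and by 0.28 as deposited. The cause was not tested. The share of all genes past 2-fold was not computed under these other settings, so the member counts under them cannot be set against it. The counts as probe sets are of probe sets and not of genes. Rspo2 after fusion came within 2-fold with the median over probe sets (log2 ratio -0.99), and the dim ligands Wnt2, Wnt7a and Wnt16 did with the floor set at the median. No paired analysis was possible because each stage has 1 array. Signals near the floor limit the ratios of Wnt2, Wnt2b, Wnt7a, Wnt10b, Wnt16 and Sfrp5.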
